A study of Mus musculus with 18 samples.

Results

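Prostates of 30-week-old mice that lack ELAC2 in prostate epithelial cells (KO) were compared directly with prostates of 30-week-old mice that carry the A537T form of ELAC2 in every cell. The 3 KO libraries (4AF, 5AF and 6AF) and the 3 A537T libraries (7AF, 8AF and 9AF) are 6 of the 18 libraries of the series, and they were chosen by genotype and age alone. KO mice are homozygous for a deletion of exon 8 of Elac2 made by Cre under the probasin promoter, which is active in prostate epithelium, so that stromal, vascular and immune cells keep the gene. A537T mice are homozygous for a CRISPR-Cas9 edit that puts threonine in place of an alanine throughout the body (Ala537Thr), the mouse counterpart of a human prostate cancer risk variant. All animals were males of the strain labelled C56NL/6N, and none carried the TRAMP tumour transgene. RNA came from the ventral and lateral prostate lobes. No wild-type (WT) library entered the test, and the WT libraries of the same age serve below only to place the levels of named genes.

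ELAC2 is the long form of RNase Z, the endonuclease that cuts the 3′ trailer from precursor tRNAs in the nucleus and in mitochondria. In mitochondria, where tRNAs separate the coding regions of long primary transcripts, its cut also helps to release mRNAs and rRNAs. Interferon-stimulated genes are switched on by transcription factors of the STAT and IRF families when cells sense interferon or foreign nucleic acid, and plasma cells are the antibody-secreting end stage of B cells. Both are commonly abundant in inflamed tissue.

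The alleles of the 2 lines are shown first because they define the groups. Elac2 lies on the plus strand of mouse chromosome 11, at chr11:64979038-65002069 of GRCm38, with 25 exons in its main transcript (GENCODE vM21). The deleted exon, exon 8 at chr11:64985563-64985621, has 59 bases of coding sequence. Its removal shifts the reading frame from codon 223 and places a stop at codon 234 of 831. The codon edited in A537T (capitals, GCT for alanine in the reference, chr11:64997968-64997970) lies in exon 17.
Elac2 exon 8: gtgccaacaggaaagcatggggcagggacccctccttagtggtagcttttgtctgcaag
Elac2 edited codon: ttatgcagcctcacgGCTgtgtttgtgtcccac

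The reads recovered from the deposited normalized counts ranged from 7734190 to 11225281 per library, and 14774 genes whose normalized counts averaged 10 or more were tested. Values below are given in the order 4AF, 5AF and 6AF for KO and 7AF, 8AF and 9AF for A537T. Markers of the seminal vesicle, an organ removed at dissection, took 8.53%, 0.000071% and 6.32% of KO reads and 7.24%, 0.00008% and 9.17% of A537T reads. One library of each line, 5AF and 8AF, thus had next to none, and the first principal component, with 61.6% of the variance, separated these 2 libraries from the other 4. Prostate luminal markers took from 1.27% to 4.66% of reads in every library. Tgm4, the prostate transglutaminase, and 9530053A07Rik together took 2.61%, 0.000935% and 2.17% of KO reads and 0.125%, 0.312% and 0.0549% of A537T reads, so libraries of a line also differed in prostate secretory transcripts. The part of tissue makeup in the results below was not tested. Values without 5AF and 8AF or with the seminal vesicle score concern seminal vesicle RNA only. The libraries left without 5AF and 8AF still differed between the lines in Tgm4 and 9530053A07Rik, with 2.61% and 2.17% in KO and 0.125% and 0.0549% in A537T.

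The normalized count of Elac2 itself was 96.1, 148 and 119 in KO and 117, 184 and 111 in A537T. The groups overlapped, and the log2 difference, KO minus A537T, was -0.17 ± 0.25 (SE, n = 3 per line). A gene-level count covers all exons, so it does not show the loss of exon 8 or the edited codon and cannot check the labels. Elac1, which encodes the short form of RNase Z, had 178, 168 and 159 in KO and 152, 165 and 166 in A537T.

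No gene passed an adjusted p of 0.05 in the limma test of all 14774 genes, and the smallest adjusted p was 0.356. By unadjusted p under 0.05, 376 genes stood out (2.55% of those tested), 137 with the higher level in KO (0.927%) and 239 with the higher level in A537T (1.62%). The counts of the lines did not overlap for 461 genes with KO above (3.12%) and for 531 genes with A537T above (3.59%), 992 in all (6.71%), and the median difference of all genes was 0.00. edgeR's quasi-likelihood test on the recovered reads also called 0 genes, with 426 at an unadjusted p under 0.05. DESeq2 on the same reads called 43 genes (0.291%), 12 higher in KO (0.0813%) and 31 higher in A537T (0.21%), and a fit that carried the seminal vesicle score as a covariate called 9 (0.0609%), 3 higher in KO (0.0203%) and 6 higher in A537T (0.0406%). Single genes below are therefore described by their values in each library, and a gene is said to be called only where one of these fits, or a fit without 5AF and 8AF that called 112 genes (0.765%, 0.335% higher in KO and 0.43% higher in A537T), is named with it.

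**Figure D1:**
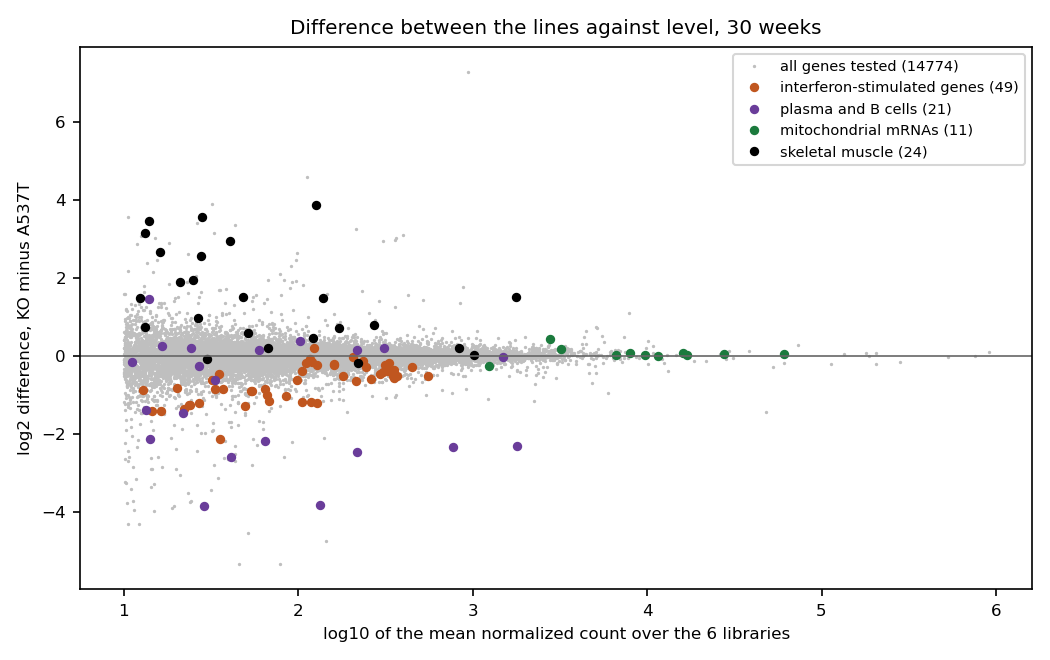
Log2 difference between KO and A537T prostates at 30 weeks (vertical axis) against the log10 of the mean normalized count over the 6 libraries (horizontal axis), with each of the 14774 genes as a grey point and the members of 4 gene lists in colour. The 49 interferon-stimulated genes lie below 0 with 1 exception, several plasma and B cell genes lie below -2, and the 11 mitochondrial mRNAs lie between -0.24 and 0.44.

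Interferon-stimulated genes had higher levels in A537T than in KO. Of the 49 members tested (of 51 listed), 48 had the higher mean log2 level in A537T, with a median difference of -0.58 against 0.00 over all genes. Every A537T library lay above every KO library for 24 of the 49 (against 3.59% of all genes) and the reverse held for 0. An unadjusted p under 0.05 with A537T higher was found for 21 (against 1.62% of all genes). Averaged over the list, the libraries stood at -0.41, -0.24 and -0.37 in KO and 0.27, 0.58 and 0.17 in A537T on the log2 scale, so the lines did not overlap. The list took 0.0672%, 0.0824% and 0.0695% of reads in KO and 0.0965%, 0.121% and 0.0903% in A537T, and the exact permutation p of 0.1 (2-sided) is the smallest that 3 against 3 libraries can give, with an adjusted p of 0.633 over 19 shares.

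The members of this list are known for short promoter elements that bind interferon regulatory factors, and such elements are shown here for members with higher counts in A537T. The motif searched, which was GAAA, any 2 bases and GAAA again, was looked for on both strands of RefSeq promoters (GRCm38.p6, 250 bases before to 50 bases after the annotated start, 300 bases in all). Of the 49 tested members 35 matched a promoter by symbol, and 14 of these 35 held the motif (40.0%), against 1131 of all 32851 promoters (3.44%). All 9 interferon-gamma-inducible GTPase genes with a promoter held it, 1 of 12 complement genes did, and 0 of 11 plasma and B cell genes did. The windows below are read on the strand of the gene, and capitals mark the motif or its reverse complement (TTTC, any 2 bases, TTTC). They belong to the 6 members with the motif and an unadjusted p under 0.05.
Ifit1, chr19:34640765-34640833, plus strand: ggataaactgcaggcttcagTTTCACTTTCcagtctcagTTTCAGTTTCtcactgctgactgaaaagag
Ifit3, chr19:34583353-34583436, plus strand: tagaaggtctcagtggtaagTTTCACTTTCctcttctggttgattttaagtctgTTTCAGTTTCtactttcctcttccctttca
Ifit3b, chr19:34607749-34607832, plus strand: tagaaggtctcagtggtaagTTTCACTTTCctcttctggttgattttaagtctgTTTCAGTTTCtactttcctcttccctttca
Rsad2, chr12:26456543-26456592, minus strand: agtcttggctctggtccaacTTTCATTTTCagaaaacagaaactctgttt
Stat2, chr10:128270256-128270305, plus strand: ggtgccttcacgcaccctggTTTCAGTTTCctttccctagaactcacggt
Eif2ak2, chr17:78882525-78882574, minus strand: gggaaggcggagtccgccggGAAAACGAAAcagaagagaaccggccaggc

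The windows of Ifit3 and Ifit3b are the same, and these neighbouring copies share reads, so their counts are uncertain one by one. A match of these letters is a description of the promoter and not evidence of binding.

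**Figure D2:**
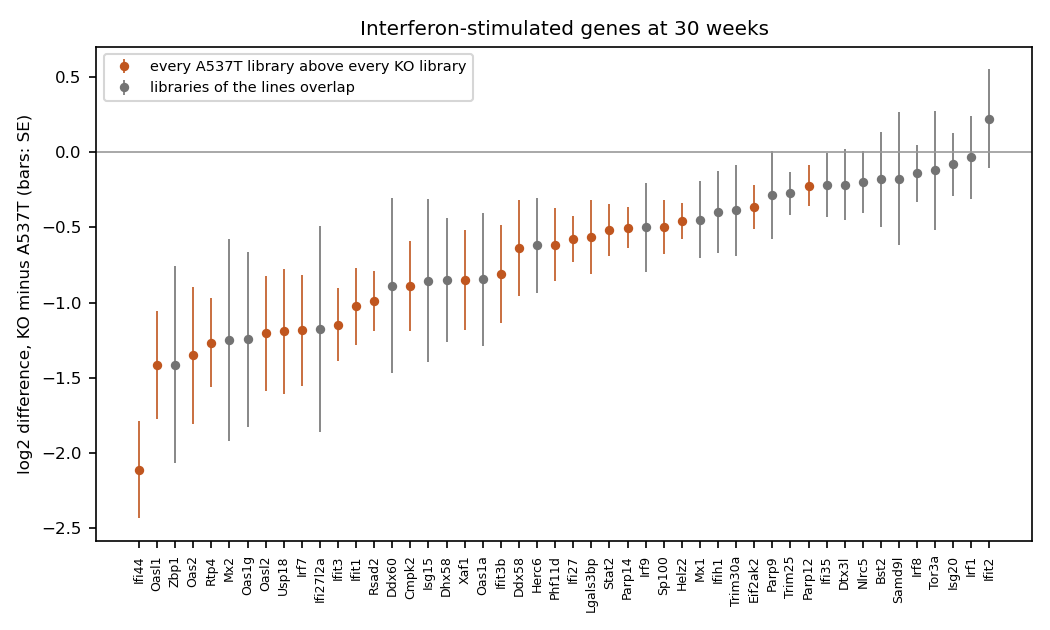
Log2 difference, KO minus A537T, of interferon-stimulated genes tested, ordered by size, with bars for the standard error from limma. All but Ifit2 lie below 0, and the genes in colour are those for which each A537T library exceeded each KO library.

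Ifi44, an interferon-induced protein of the cytoplasm, had the largest difference of the list. Its normalized counts were 10.8, 17.2 and 10.2 in KO and 51.9, 76.0 and 47.1 in A537T, a log2 difference of -2.11 ± 0.32 (SE, n = 3 per line, adjusted p = 0.52). The lowest A537T library exceeded the highest KO library, and Ifi44 was called by DESeq2, by the fit without 5AF and 8AF, and by the fit with the seminal vesicle score (adjusted p = 0.0467). Ifit3, which helps IFIT1 to bind foreign RNA, had 30.0, 51.7 and 46.5 in KO and 86.1, 92.9 and 103 in A537T (log2 difference -1.15 ± 0.24, adjusted p = 0.91). Ifit1 itself had 50.5, 76.2 and 43.1 in KO against 115, 132 and 94.1 in A537T (-1.03 ± 0.26). Rsad2, which encodes the antiviral enzyme viperin, had 39.6, 39.5 and 53.3 in KO and 78.3, 98.5 and 87.7 in A537T (-0.99 ± 0.20). In all 4 genes the lines did not overlap.

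The regulators of the response showed the same order of the lines. Irf7, the transcription factor that amplifies type I interferon, had counts of 49.3, 57.5 and 78.3 in KO and 138, 227 and 85.6 in A537T (log2 difference -1.19 ± 0.37). Stat2 had 252, 328 and 324 in KO and 423, 513 and 364 in A537T (-0.52 ± 0.17). Both were without overlap. Among the most abundant members, Parp14, an ADP-ribosyltransferase, stood at 463, 450 and 454 in KO and 577, 776 and 600 in A537T (-0.50 ± 0.14). Trim25, a ubiquitin ligase of RIG-I signalling, overlapped, with 383, 466 and 373 in KO and 485, 555 and 439 in A537T (-0.27 ± 0.14). The oligoadenylate synthetase-like gene Oasl2 had 57.7, 60.4 and 112 in KO against 144, 274 and 124 in A537T (-1.20 ± 0.38). The deubiquitinase-like Usp18, which restrains interferon receptor signalling, had 21.6, 8.62 and 19.3 against 41.1, 44.1 and 26.7 (-1.19 ± 0.42), while Isg15, whose product it removes from proteins, was low in all libraries and overlapped (-0.86 ± 0.54). Library 8AF had the highest mean over the list, and the median of the list stayed between -0.65 and -0.37 under all 18 alternatives, which included leaving out each library, and it was -0.41 without 5AF and 8AF.

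Genes of interferon-gamma-inducible GTPases, which disrupt the vacuoles of intracellular microbes, showed the same order with a smaller difference. Of 14 tested, 13 had the higher mean in A537T (median -0.36), and 8 did not overlap with A537T above (against 3.59% of all genes). For 4 the unadjusted p was under 0.05 with A537T higher (against 1.62% of all genes). Gbp3 had 24.0, 22.99 and 35.2 in KO and 57.7, 76.0 and 56.7 in A537T (log2 difference -1.20 ± 0.25, adjusted p = 0.912). The 3 most abundant members, Irgm1 (-0.37 ± 0.16), Irgm2 (-0.34 ± 0.17) and Gbp7 (-0.42 ± 0.16), each lay higher in every A537T library. Of 20 genes of MHC class I and antigen processing, 17 had the higher mean in A537T with a median of -0.15 (-0.09 without 8AF). Without overlap and with A537T above were 2 (against 3.59% of all genes), and 0 had an unadjusted p under 0.05. Class II genes overlapped throughout: Cd74, the invariant chain, had 687, 726 and 644 in KO and 852, 1371 and 700 in A537T (-0.45 ± 0.24), with 8AF far above the rest, and the median of the 8 class II genes was -0.29 with all libraries but -0.05 without 8AF. H2-Aa (-0.30 ± 0.23) and H2-Eb1 (-0.26 ± 0.18) followed the same pattern.

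Several transcripts of antibody chains had higher counts in every A537T library than in any KO library. Of 21 plasma and B cell genes tested, 14 had the higher mean in A537T and 7 in KO, with differences from -3.85 to 1.46. Without overlap were 11 (against 3.59% of all genes with A537T above), and 10 had an unadjusted p under 0.05 (against 1.62%), all with A537T higher. The list median was -0.62, or -1.44 without 5AF. Ighm, the constant region of IgM, had normalized counts of 580, 454 and 503 in KO and 2405, 5650 and 1177 in A537T (log2 difference -2.30 ± 0.52, adjusted p = 1.0). Igkc, the constant region of the kappa light chain, had 297, 161 and 258 in KO and 1076, 2215 and 648 in A537T (-2.32 ± 0.46, adjusted p = 0.821). Jchain, which joins IgM and IgA into polymers, had 64.9, 52.4 and 68.1 in KO and 322, 586 and 213 in A537T (-2.46 ± 0.36, adjusted p = 0.52). The A537T libraries were above every KO library for all 3 genes, and they also differed among themselves, with 8AF highest and 9AF lowest.

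The lambda light chains Iglc1 and Iglc2 and the IgG constant regions Ighg2b and Ighg2c added to this order. Iglc2 had 9.61, 11.5 and 11.3 in KO and 74.4, 91.0 and 50.3 in A537T (-2.59 ± 0.29, adjusted p = 0.356), and Iglc1 had 2.40, 2.87 and 2.27 against 48.9, 89.1 and 27.8 (-3.85 ± 0.50, adjusted p = 0.449), but these constant regions are near copies and share reads. Ighg2c was uneven, with 31.2, 0.718 and 32.9 in KO and 297, 45.0 and 390 in A537T (-3.83 ± 1.35), so that the lowest library of each line was 5AF and 8AF. Ighg2b had 34.8, 7.90 and 36.3 against 88.1, 126 and 96.3 (-2.18 ± 0.57). DESeq2 called 5 members of the list higher in A537T (against 0.21% of all genes). Igkc, Ighm, Jchain, Iglc1 and Iglc2 were the 5, and none was called higher in KO.

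Markers earlier in the B lineage did not show this order. The recovered reads of Cd79a, a part of the B cell receptor, were 4, 13 and 12 in KO and 8, 11 and 6 in A537T. Those of Ms4a1 (CD20) were 7, 23 and 6 in KO and 9, 19 and 8 in A537T. These counts are too low to show a moderate difference. The secretory regulator Xbp1, which the glandular epithelium also expresses, had means of 1473 in KO and 1504 in A537T (-0.03), and Igha had 63.2 and 55.7 (0.16). Irf4, needed for plasma cell formation, had 13.2, 10.1 and 7.94 in KO and 30.3, 53.5 and 16.05 in A537T (-1.46 ± 0.49). The 6 B and plasma cell markers took together 0.00414%, 0.00317% and 0.00382% of KO reads and 0.0168%, 0.0347% and 0.00981% of A537T reads (exact permutation p = 0.1, adjusted p = 0.633). In bulk RNA fewer cells of a type cannot be told apart from less RNA per cell.

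**Figure D3:**
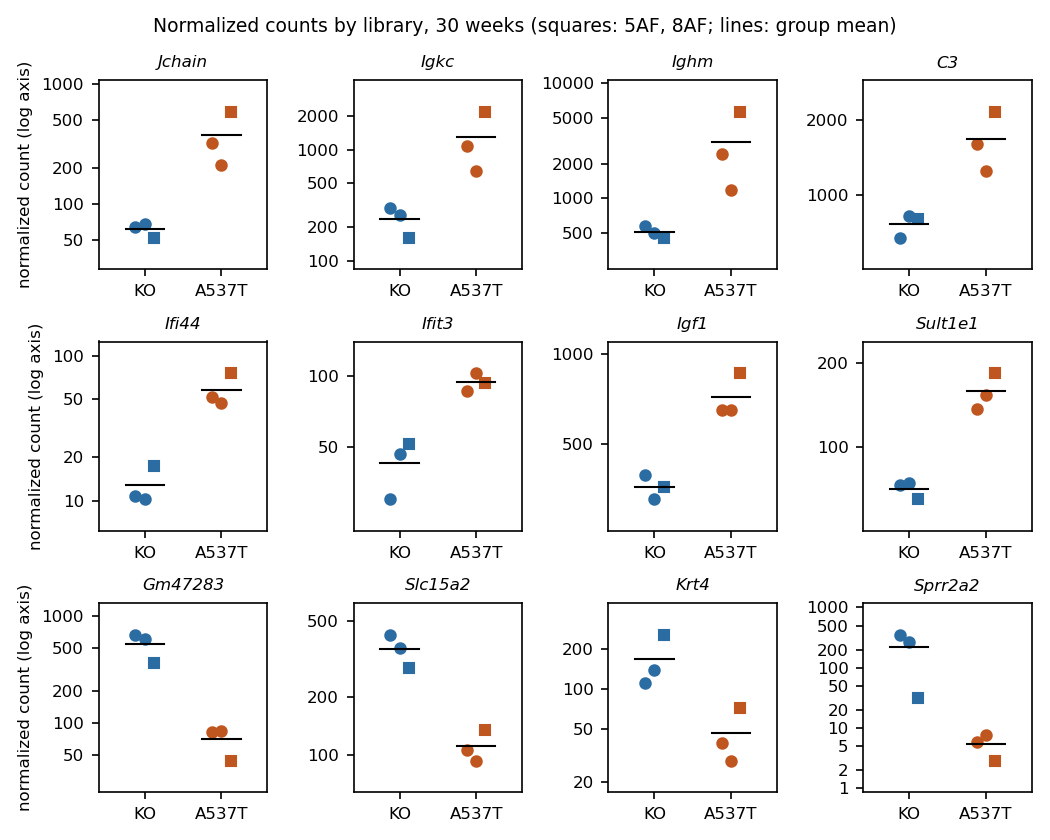
Normalized counts (log axis) of 12 genes in each of the 3 KO and 3 A537T libraries at 30 weeks, with black lines at the group means and squares for 5AF and 8AF, the libraries with almost no seminal vesicle RNA. A537T libraries lie above KO libraries for the 8 genes from Jchain to Sult1e1 and below them for the last 4, without overlap in any panel.

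Myeloid and complement genes were ordered in the same way but with more overlap. Of 29 macrophage and dendritic cell genes tested, 26 had the higher mean in A537T (median -0.41, but -0.23 without 4AF and -0.59 without 5AF). With A537T higher, 3 were without overlap (against 3.59% of all genes) and 4 had an unadjusted p under 0.05 (against 1.62%). Itgam, the integrin alpha chain of myeloid cells, had 62.5, 63.2 and 52.2 in KO and 91.0, 143 and 90.9 in A537T (-0.83 ± 0.23). Siglec1, a macrophage receptor that is also induced by interferon, had 27.6, 56.8 and 29.5 in KO and 72.4, 172 and 63.1 in A537T (-1.34 ± 0.46), without overlap. Mrc1 overlapped, with 161, 286 and 187 in KO and 317, 422 and 254 in A537T (-0.66 ± 0.27). Lyz1, a lysozyme gene, overlapped as well, with 7.21, 38.1 and 10.2 in KO and 62.6, 199 and 32.1 in A537T. The 5 macrophage markers summed to normalized counts between 517 and 892 in KO and between 686 and 1412 in A537T, so that KO library 5AF lay within the A537T range. T and NK cell genes gave no direction, with 9 of 36 genes abundant enough to test, 5 higher in KO and 4 higher in A537T (median 0.07), and the 4 T cell markers summed to between 22.8 and 43.8 in KO and 27.4 and 44.1 in A537T.

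Of 20 complement genes tested, 17 had the higher mean in A537T (median -0.43, but -0.23 without 8AF and -0.69 without 5AF). With A537T higher, 6 were without overlap (against 3.59% of all genes) and 6 had an unadjusted p under 0.05 (against 1.62%). C3, the central component of the cascade, had 675, 802 and 826 in KO and 1607, 2168 and 1252 in A537T (-1.09 ± 0.21, adjusted p = 0.776), and it was called by DESeq2 and by the fit without 5AF and 8AF. C7, of the membrane attack complex, had 286, 129 and 229 in KO and 452, 401 and 429 in A537T (-1.06 ± 0.29). Serping1, the C1 inhibitor, overlapped (-0.29 ± 0.20). Among 16 chemokine genes tested the median was -0.08, with 3 genes without overlap in each direction. Over all genes the shares were 3.12% with KO above and 3.59% with A537T above. Cxcl14, an epithelial chemokine, had the higher counts in KO, with 156, 212 and 162 against 124, 142 and 129, and the low Ccl5 and Cxcl9 were also without overlap with KO above. The B cell attractant Cxcl13 had 13.2, 29.5 and 17.02 in KO and 67.5, 100 and 43.9 in A537T (-1.77 ± 0.41), and the eosinophil attractant Ccl11 had 12.0, 17.96 and 14.7 against 40.1, 58.2 and 34.2 (-1.49 ± 0.31), both without overlap, and Cxcl10 was low and also without overlap with A537T above.

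**Figure D4:**
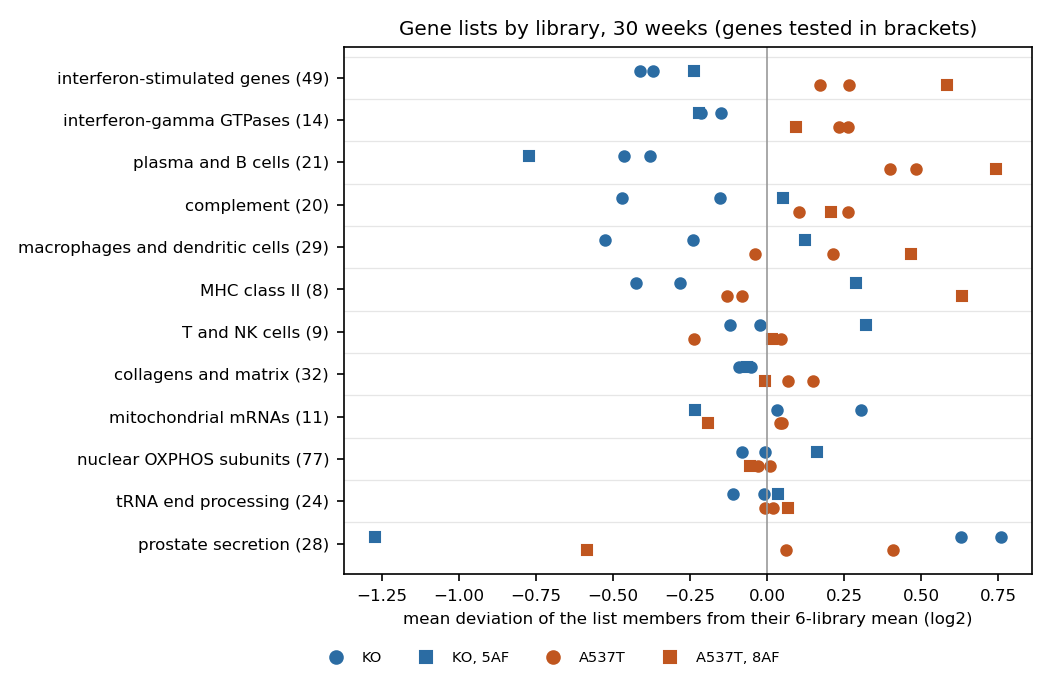
Mean deviation of each gene list from its 6-library mean (log2, horizontal axis) in the 3 KO and 3 A537T libraries at 30 weeks, with the number of genes tested in brackets and squares for 5AF and 8AF. Interferon-stimulated genes, interferon-gamma GTPases, plasma and B cells, complement and collagens show no overlap between the lines, while the other 7 lists overlap.

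Of 19 genes of insulin-like growth factor signalling tested, 11 had the higher mean in KO and 8 in A537T (median 0.15). Without overlap were 2 with A537T above (against 3.59% of all genes) and 1 with KO above (against 3.12%). Igf1, the growth factor, had 395, 359 and 327 in KO and 647, 862 and 650 in A537T (-0.99 ± 0.15, adjusted p = 0.52), so that the lines were separated by a wide gap, and it was called by DESeq2 and by the fit without 5AF and 8AF. Its binding protein Igfbp4 had 229, 257 and 219 against 376, 431 and 315 (-0.66 ± 0.15). Sult1e1, the oestrogen sulfotransferase, had 73.3, 65.4 and 74.9 in KO and 137, 184 and 154 in A537T (-1.13 ± 0.16, adjusted p = 0.52). Of 32 collagen and matrix genes, 22 had the higher mean in A537T (median -0.11, but -0.24 without 8AF and -0.04 without 9AF). Without overlap were 5 with A537T above (against 3.59% of all genes) and 1 with KO above (against 3.12%). Dcn had 2213, 1954 and 2105 in KO and 2553, 2855 and 2471 in A537T (-0.33 ± 0.11), whereas the abundant Col6a3 (-0.71 ± 0.33) and Col3a1 (-0.35 ± 0.19) overlapped. Among 38 redox and glutathione genes, 25 had the higher mean in KO and 13 in A537T (median 0.06). Gpx3, a secreted glutathione peroxidase, had 2142, 1961 and 1909 in KO and 2668, 3182 and 2295 in A537T (-0.43 ± 0.14).

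By the rule of size (mean of at least 50, no overlap, unadjusted p under 0.05), 135 genes were higher in A537T and 77 higher in KO. The 10 largest in A537T were 2 immunoglobulin variable segments, Ighg2c, Jchain, Igkc, Ighm, Ighg2b, Plac9b, Tppp3 and Siglec1. Plac9b had 36.0, 20.1 and 23.8 in KO and 130, 85.4 and 80.2 in A537T (-1.86 ± 0.30), but it has a near-identical neighbouring copy and its reads are uncertain. Tppp3, a tubulin-binding protein, had 28.8, 41.0 and 38.6 against 107, 67.6 and 125 (-1.41 ± 0.28). The heat shock gene Hspa1b had 254, 189 and 288 against 460, 571 and 418 (-0.99 ± 0.20, called by DESeq2), and it too has a near copy.

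The 10 largest differences with KO higher were Sprr2a2, Gm47283, Scgb2b27, Krt4, Scgb2b20, Slc15a2, Ptprq, Scgb1b20, Atp10b and Abcc3. Gm47283, a protein-coding gene at chrY:90784738-90816464 without an assigned function, shared the smallest adjusted p with Iglc2 and an antibody variable segment. It had counts of 666, 364 and 605 in KO and 82.2, 44.1 and 84.5 in A537T (log2 difference 2.95 ± 0.33, adjusted p = 0.356). It was called by DESeq2, by the fit with the seminal vesicle score (2.98 ± 0.11, adjusted p = 0.000155) and by the fit without 5AF and 8AF. Its lowest KO library lay far above its highest A537T library, but it lies in the part of the Y chromosome that is shared with X, so its count is uncertain. Slc15a2, the proton-coupled peptide transporter PEPT2, had 424, 284 and 361 in KO and 106, 135 and 93.1 in A537T (1.67 ± 0.21, adjusted p = 0.449). Atp10b, a phospholipid flippase, had 85.3, 103 and 87.3 against 28.4, 37.5 and 40.7 (1.36 ± 0.21), and Ptprq, a receptor phosphatase, had 68.5, 108 and 82.8 against 27.4, 31.9 and 24.6 (1.58 ± 0.24), both with an adjusted p of 0.52. Abcc3, an organic anion exporter, had 296, 393 and 383 against 166, 264 and 147 (0.93 ± 0.24).

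Of the 20 basal and luminal epithelial genes tested, 14 had the higher mean in KO with a median of 0.11. Without overlap and with KO above were 2, against 3.12% of all genes. Krt4, a keratin of stratified and distal prostate luminal cells, had 111, 255 and 137 in KO and 39.1, 72.3 and 28.9 in A537T (1.83 ± 0.43), and it was called by DESeq2 and by the fits with the seminal vesicle score and without 5AF and 8AF. Sprr2a2, which encodes a cornified envelope protein, had 354, 30.9 and 271 in KO and 5.87, 2.82 and 7.49 in A537T (4.59 ± 0.93), so that 5AF was far below the other KO libraries but still above A537T. Of 5 urothelium markers, which would come from bladder or urethra, all had the higher mean in KO, and their summed normalized counts lay between 1048 and 1463 in KO and between 672 and 1357 in A537T. Reads of Upk2 were 32, 2 and 18 in KO and 6, 2 and 5 in A537T, and those of Upk3a were 16, 0 and 18 against 1, 0 and 0. Both were thus highest in 4AF and 6AF and low in 5AF, as Sprr2a2 was. Upk1a, the most abundant of the 5, went the other way, with 387, 1770 and 598 reads in KO and 640, 1202 and 401 in A537T. It was thus highest in 5AF and 8AF. The part of urothelium in these differences was not tested. The copy Sprr2a1, which overlaps Sprr2a2, had 54.1, 2.87 and 6.81 in KO and 0 reads in each A537T library. The gasdermin genes Gsdmc2 (118, 28.7 and 96.4 against 3.91, 5.63 and 8.56) and Gsdmc3 (84.1, 29.5 and 69.2 against 1.96, 4.69 and 2.14), also near copies of each other, were both called by DESeq2. Psca, a surface antigen of prostate progenitors, overlapped, with 108, 30.2 and 102 in KO against 33.3, 31.9 and 23.5 (1.22 ± 0.51).

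The secretoglobin genes named by the rule of size lie in the androgen-binding protein cluster on chromosome 7 and had lower counts in each A537T library. Scgb2b20 (chr7:33364343-33366322) had 857, 2085 and 1025 in KO and 496, 133 and 674 in A537T (1.78 ± 0.64), Scgb1b20 had 445, 937 and 497 against 258, 92.9 and 323 (1.57 ± 0.51), and Scgb2b27 had 76.9, 270 and 126 against 50.9, 20.6 and 41.7 (1.93 ± 0.53). In each the highest library was 5AF and the lowest 8AF, and without those libraries the differences were 0.70, 0.70 and 1.08. The genes of this cluster are paralogues, so reads may be split among them. Among all 28 prostate secretion genes tested, 13 had the higher mean in KO and 15 in A537T (median -0.02). Without overlap and with KO above were 2 (against 3.12% of all genes), Scgb2b27 and the androgen-regulated protease Tmprss2. Tmprss2 had 1239, 1229 and 1399 in KO and 751, 1082 and 669 in A537T (0.66 ± 0.19). The 26 androgen receptor and target genes had a median of -0.05, with 10 higher in KO and 16 in A537T.

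Mitochondrial mRNAs and rRNAs, which are released from primary transcripts with the help of ELAC2, showed no called difference. The lines overlapped in all but mt-Nd3, and 3.12% of all genes were without overlap with KO above. Of 11 mitochondrial mRNAs, 9 had the higher mean in KO and 2 in A537T, with a median of 0.05 (-0.08 without 4AF) and differences from -0.24 to 0.44. They took 1.98%, 1.96% and 1.77% of KO reads and 1.94%, 1.803% and 1.85% of A537T reads. mt-Co1, which encodes a core subunit of complex IV, had normalized counts of 62034, 65171 and 59071 in KO and 59699, 56715 and 62103 in A537T (0.06 ± 0.19). mt-Nd3, of complex I, was the 1 member without overlap, with 3242, 3063 and 3265 in KO and 2404, 1865 and 2921 in A537T (0.44 ± 0.17, adjusted p = 1.0). The rRNAs mt-Rnr1 (-0.29 ± 0.38) and mt-Rnr2 (-0.20 ± 0.34) overlapped, and errors of this size leave room for moderate differences in either direction.

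Nuclear genes of the same machinery had medians close to that of all genes. Of 24 tRNA end-processing genes 17 had the higher mean in A537T with a median of -0.06, and 0 had an unadjusted p under 0.05. The median was -0.02 over 38 mitochondrial RNA and translation factors. Among 77 nuclear OXPHOS subunit genes, 57 had the higher mean in KO with a median of 0.06, but -0.03 without 5AF and 8AF. Only 1 was without overlap in each direction, against 3.12% of all genes with KO above and 3.59% with A537T above. The integrated stress response genes had a median of 0.04 over 31 genes and the ER chaperones of 0.02 over 32. Cell cycle genes had a median of -0.10 over 34, but 0.01 without 9AF. Of these 34, 24 had the higher mean in A537T and 0 an unadjusted p under 0.05. The 5 genes that the study names in these lines all overlapped. Tst, the mitochondrial thiosulfate sulfurtransferase, had 296, 254 and 295 in KO and 221, 258 and 169 in A537T (0.40 ± 0.18), and the differences of Gldc (0.58 ± 0.93), Bcl2 (0.16 ± 0.34), Trp63 (0.11 ± 0.36) and Hif3a (0.34 ± 0.46) were smaller than their standard errors.

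Lists of neighbouring tissue varied most between libraries of a line. The 24 skeletal muscle genes tested had a median of 1.49, with 22 higher in KO, but 0.23 without 5AF and 8AF, and 5AF alone had 872 of the Myh4 reads against 0 and 109 in the other KO libraries and 3, 0 and 5 in A537T. The 20 adipocyte genes had a median of 0.01, which became -1.60 without 5AF and 8AF. Of the 10 seminal vesicle genes 9 had the higher mean in A537T (median -0.51) and none was without overlap, and this median was -4.09 without 8AF and 2.59 without 5AF. Of 20 smooth muscle genes, 16 had the higher mean in KO (median 0.05). Without 5AF and 8AF the medians of interferon-stimulated genes (-0.41) and of plasma and B cell genes (-0.72) kept their direction, and the part of tissue makeup in them was not tested.

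Levels in WT prostates of the same age place the lines against a common base. Each line was set against WT within its deposited table, and the 2 comparisons share the WT animals, so their values are given side by side and not correlated. Interferon-stimulated genes had a median of 0.13 in KO against WT and 0.78 in A537T against WT, and plasma and B cell genes had 0.06 and 2.18. Jchain counts, scaled within the KO table, lay between 53.9 and 103 in WT and between 53.6 and 69.8 in KO, and within the A537T table the mutant libraries lay between 218 and 602. Ifi44 counts lay between 8.04 and 16.1 in WT, 10.5 and 17.6 in KO, and 48.2 and 78.1 in A537T. For both genes the A537T libraries stood above WT and the KO libraries lay close to or within the WT range. Other interferon-stimulated genes were placed otherwise. Within the KO table, Parp14 counts lay between 343 and 369 in WT and between 460 and 474 in KO. Stat2 counts lay between 400 and 468 in WT and between 258 and 336 in KO, while the A537T libraries overlapped WT for Stat2. Macrophage and dendritic cell genes (0.48 and 0.84) and complement genes (0.35 and 0.76) had positive medians in both lines. Krt4 counts lay between 39.2 and 66.7 in WT, 113 and 261 in KO, and 29.6 and 74.2 in A537T, so that the KO libraries stood above WT. Scgb2b20 had log2 differences from WT of -1.30 in KO, whose libraries overlapped WT, and -3.07 in A537T, whose libraries lay below WT. The adjusted p was above 0.05 for each gene named here in both comparisons.

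**Figure D5:**
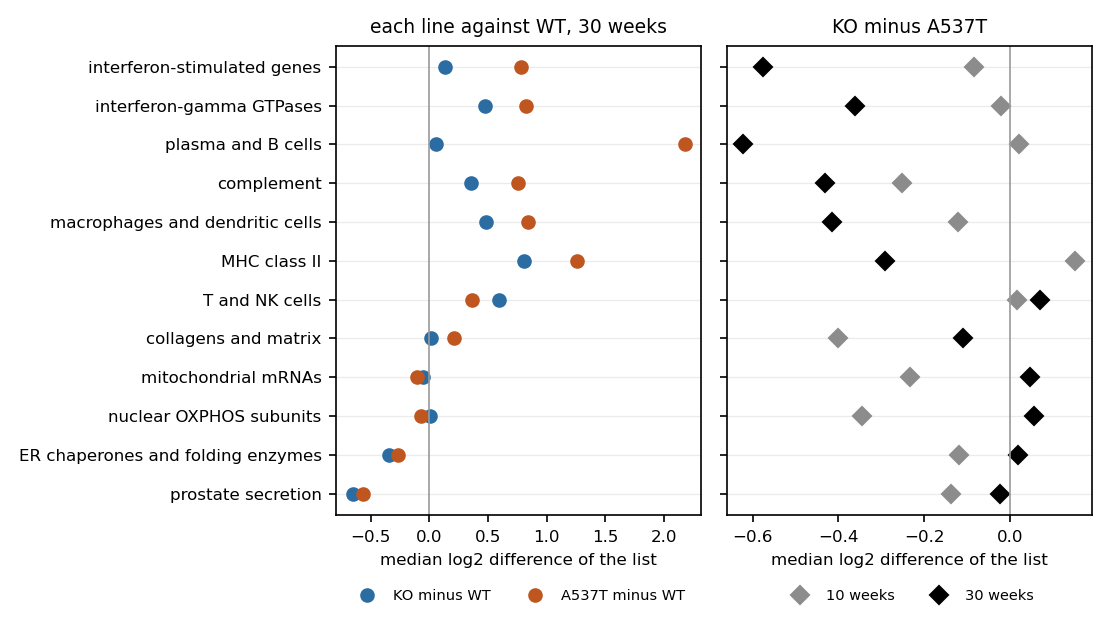
Median log2 difference of 12 gene lists (horizontal axes), for each line against the WT libraries of its own table at 30 weeks (left, both lines share the WT animals) and for KO minus A537T at 10 and at 30 weeks (right). The medians of interferon-stimulated genes are 0.13 and 0.78 on the left, and -0.08 at 10 weeks and -0.58 at 30 weeks on the right. Medians at 10 weeks come from a fit of the libraries of both ages and leave out list members that were not tested there.

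The lines were also compared at 10 weeks, with 3 KO and 3 A537T libraries, to ask whether the 30-week difference was already there. The 10-week values are a contrast within a fit of the libraries of both ages, normalized and filtered together. The 30-week test used its own 6 libraries, so the numbers of called genes at the 2 ages cannot be compared directly. Interferon-stimulated genes had a median of -0.08 at 10 weeks against -0.58 at 30 weeks, interferon-gamma GTPases -0.02 against -0.36, and plasma and B cell genes 0.02 against -0.62. Some GTPase and some plasma and B cell genes were not tested at 10 weeks, so the medians of these lists cover different members at each age. That test called 4 genes at 10 weeks (0.0275%), and the interaction of line and age called 0 of 15082 genes, with 1467 at an unadjusted p under 0.05. Of the 49 interferon-stimulated genes 17 had an unadjusted p under 0.05 with a larger excess in A537T at 30 weeks and 0 the reverse, against 4.36% and 4.88% of the 14554 genes tested in both fits. Of the plasma and B cell genes 6 did and 0 the reverse, but not all 21 were abundant enough over both ages to enter that fit. Of those that entered, 8 had the higher mean in KO and 8 in A537T at 10 weeks. Jchain had a log2 difference of -0.33 at 10 weeks and -2.46 at 30 weeks, and Ifit3 had 0.36 and -1.15. Other members had higher means in A537T at 10 weeks already, with log2 differences of -1.26 for Igkc, -1.26 for Ighg2b and -0.85 for Ifi44, and the interaction had an unadjusted p of 0.103 for Igkc and 0.63 for Ighg2b. Cxcl13 had -1.39 and Lyz1 -1.34 at 10 weeks. The 10-week libraries differ in tissue makeup too, since the skeletal muscle genes had a median of -5.06 there, and OXPHOS subunits had -0.34, with 29 of 77 at an unadjusted p under 0.05 for a shift toward KO between the ages.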

How the data were processed

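The authors sequenced total prostate RNA (Illumina TruSeq and NovaSeq). Per the submitters' processing notes and the study's methods, reads were trimmed with Trim Galore 0.4.1 and cutadapt 1.18, aligned to GRCm38.p6 with STAR 2.7.3a, quantified with Salmon and normalized with DESeq2 1.26. The deposited values are a signal, gene counts divided by a size factor made within each of 4 tables of a line and its WT. The authors' tables of fold changes and s-values were not used. Dividing each column by the value of 1 read gave whole reads (within 0.01 read) for at least 99.95% of non-zero values. A library held by both tables of an age was taken as WT and the others as the line of the table, and 0 columns were left unmapped. The labels say only that the mice were age- and littermate-matched, so p-values measure the spread between these samples.

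Reads of the 6 libraries were normalized together by median-of-ratios size factors, and log2(normalized count + 1) was fitted with limma 3.58.1 (mean trend, R 4.3.3) over genes averaging at least 10, with Benjamini-Hochberg adjustment. This scale understates changes of low genes. The same WT library differed between tables by a median of 0.0176 (log2) per gene, so a table correction was an alternative. Other alternatives were edgeR 4.0.16, DESeq2 1.42.0, TMM, equal totals, minimum means of 1 and 100, a pseudocount of 8, no mean trend, a seminal vesicle covariate and left-out libraries. Shares of reads were compared by an exact permutation test over libraries.

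The members, gene lists and markers were chosen with earlier results of these data known. Named genes were Elac2, mitochondrial and study-named genes, the 3 most abundant members of a list, and the 10 largest differences per direction among genes with a mean of at least 50, no overlap and an unadjusted p under 0.05. Lists near 0 are given by counts, and the further genes were named after their values were seen. Some members of the lists are counted but not reported here by name. In data simulated for KO against A537T at 30 weeks (14774 genes), 14 of 100 genes changed 2-fold and 86 of 100 changed 4-fold were called, with 8 false among 108 calls. These shares hold for the simulated counts only. In the real libraries limma called neither Gm47283 (log2 difference 2.95, adjusted p = 0.356) nor Jchain (-2.46, adjusted p = 0.52). Both differed by more than 4-fold. The simulation therefore does not show that most 4-fold differences between the real libraries would be called.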

Additional observations from a re-analysis of the deposited data

Results flagged for a closer look

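The genes Atp10b, Iglc2 and Rsad2 were singled out by the place of their libraries against WT. Every KO library lay on one side of all WT libraries of its table, and every A537T library lay on the other side. Only the 73 genes whose differences were followed were searched, and the share over all genes was not counted. Atp10b was above WT in KO (0.84, log2) and below it in A537T (-0.53), with a direct difference of 1.36 between the lines. Iglc2 was below WT in KO (-0.47) and above it in A537T (2.18), a direct difference of -2.59, and Rsad2 was below WT in KO (-0.35) and above it in A537T (0.65), a direct difference of -0.99. For Rsad2 the gap was small, with the highest KO library at 54.7 and the lowest WT library at 55.4. By limma against WT, the adjusted p of Atp10b, Iglc2 and Rsad2 was 0.33, 0.63 and 0.55 in KO. In A537T it was 0.37, 0.15 and 0.27. Whether a line moved opposite to the other against WT was not tested as such. The direct differences were tested by limma over all genes and did not pass (adjusted p = 0.52, 0.356 and 0.821), and groups of 3 libraries are too small to test for single outlying libraries.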

How the results depend on the processing

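No paired analysis was possible because the columns of the tables carry no replicate number. The comparison of KO and A537T at 30 weeks called 0 genes with limma, TMM, equal totals, edgeR, other filters and pseudocounts, no trend or the table correction. It called 43 with DESeq2, 9 with the seminal vesicle score, 9 with that score and the table correction, and 112 without libraries 5AF and 8AF (49 higher in KO, 63 higher in A537T). Leaving out 1 library gave between 0 and 5 calls, the 5 without 5AF. The cause of these differences in count was not tested. The line by age test called 0 genes with equal totals, the table correction or the other pseudocount, and between 0 and 108 when a library was left out (108 without 14AF, 18 without 8AF, 5 without 16AF and 4 without 5AF).

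Of 73 genes whose differences were followed, 66 kept their direction under every alternative run, and 27 were called under at least 1. mt-Co1 turned to -0.0072 and Hif3a to -0.33 without 5AF and 8AF. When a library was left out, Elac2 ranged from -0.32 to 0.064, mt-Rnr1 from -0.63 to 0.0078, Gldc from -0.40 to 1.19, Bcl2 from -0.14 to 0.43, Trp63 from -0.17 to 0.51 and Hif3a from -0.14 to 0.71. The difference in the seminal vesicle share, -0.519 percentage points, ranged from -3.25 to 1.96 and that of mitochondrial mRNAs, 0.0397 points, from -0.000127 to 0.107. The median of all genes moved from 0.00 to -0.03 under equal totals. In the simulation with 3 libraries per line, most 2-fold differences were not called.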

Other observations

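Neuronal genes were found in 2 A537T libraries. Recovered reads of Snap25, a synaptic protein, were 1, 0 and 0 in KO and 53, 1 and 58 in A537T, and those of Th, the first enzyme of catecholamine synthesis, were 0, 0 and 0 against 20, 0 and 26. Th and Snap25 were thus nearly absent from 8AF and from all KO libraries, and Nefl, Npy, Dbh and Vip were among the 63 genes called higher in A537T without 5AF and 8AF.

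Ren1, the renin gene, had normalized counts of 3157 in 4AF and 2455 in 6AF and at most 0.979 in the other 4 libraries. Tgm4, the prostate transglutaminase, had 23954 in 4AF and 19342 in 6AF, 32.3 in 5AF and between 618 and 2490 in A537T, and Mmp7 had 1330 and 1065 in 4AF and 6AF, 97.7 in 5AF and between 135 and 314 in A537T. These 3 genes therefore split the KO line and overlapped between the lines.

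Gm43305, a non-coding transcript at chr14:54292443-54297456, had 35686, 11139 and 28065 normalized counts in KO and 85565, 24416 and 104006 in A537T, with overlap (log2 difference -1.43, adjusted p = 1.0). It was called with the seminal vesicle score as a covariate (-1.37, adjusted p = 0.0364).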
